A study of Homo sapiens with 8 samples.

Results

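Cytoplasmic ribosomal protein mRNAs encode the protein subunits of the 80S ribosome, and they were followed here through 8 RNA libraries of HEK293T cells, a human embryonic kidney line that carries the SV40 large T antigen. The members were all gene symbols that begin with RPL or RPS and a number, with the endings of known paralogs, plus RPLP0, RPLP1, RPLP2 and RPSA, without pseudogenes. This rule took no measured value and gave 87 genes of 25869 symbols, with 153 of the 53216 transcripts in the table. Of these, 53 belong to the large (60S) subunit and 34 to the small (40S) subunit. FAU and RACK1, which also encode parts of the ribosome, fall outside the rule and are given beside the members.

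The study asked which human RNAs carry NAD at their start and whether DXO, an enzyme that removes such caps in vitro, limits them. RiboMinus, which depletes ribosomal RNA, was applied to wild-type (WT) RNA in 2 libraries, NAD-Capture was applied to WT RNA in 3, and NAD-Capture RNA from cells labelled DXO-KO, a knockout of DXO, made up 3. All cells were HEK293T grown without treatment, and the labels give neither the number of knockout clones nor the targeted exon. In NAD-Capture, an ADP-ribosyl cyclase swaps part of NAD for an alkyne, a copper-catalysed reaction adds biotin, and streptavidin beads bind the product. A reaction lacking the cyclase served as background control in the protocol and was not analysed here, so binding that depends on NAD and binding that does not cannot be told apart. NAD-Capture libraries were built with a SMARTer low-input kit and RiboMinus libraries with a TruSeq kit, so capture and kit cannot be told apart. Nothing in the labels says that replicates came from separate cultures, and p-values measure only the spread between these libraries.

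Values are FPKM (fragments per kilobase of length, relative to all mapped fragments), summed over the transcripts of a gene. Read from the lowest values, the depth came to 8722896 and 10678025 fragment equivalents in the RiboMinus libraries, 165458 to 248663 for WT NAD-Capture and 80468 to 804821 under the knockout label. At that depth 1 fragment on 1 kb of transcript was worth about 0.1 FPKM with RiboMinus (0.0937 and 0.115), 4.02 to 6.04 after NAD-Capture of WT RNA and 1.24 to 12.4 under the knockout label. On a shorter transcript 1 fragment is worth more FPKM. DXO itself, the check of the knockout label, stood at 11.2 and 14.3 FPKM with RiboMinus. It reached 33.2, 17.2 and 27.1 after NAD-Capture of WT RNA, and 128, 61.6 and 71.7 under the knockout label. Its RNA was not lower under the knockout label (log2 difference 1.69, limma adjusted p = 0.116), and RNA level does not show whether the protein was lost. Of 5 HEK293 markers, NEFL, NEFM, INA and LIN28B were above 0 in every library, and PAX2 was at 0.0831 and 0.204 FPKM with RiboMinus, at 6.16, 4.77 and 7.17 in WT NAD-Capture and at 1.48, 0 and 3.65 under the knockout label. PTPRC and HBB, markers of blood cells, were listed at 0 in all 8 libraries. ALB and CD3E were above 0 in 1 library each, and COL1A1, a fibroblast marker, had means of 1.42 FPKM with RiboMinus, 8.71 in WT NAD-Capture and 2.33 under the knockout label; its part in the results was not tested.

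Ribosomal protein mRNAs are among the most abundant messages of growing cells, and one copy of nearly every protein goes into each ribosome. In vertebrates most of them begin with a 5′ terminal oligopyrimidine (TOP) tract, a C followed by a run of C and T, through which mTOR signalling and LARP1 set their translation. An NAD cap arises when a polymerase starts an RNA with NAD in place of ATP, which places it on RNAs that start at A, whereas a TOP transcript starts at C. NAD has also been reported on processed RNAs such as intronic snoRNAs, whose ends are not transcription starts.

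RefSeq (assembly GRCh38.p14) gave promoter sequence for 70 of the 87 members, with 86 annotated starts. At the start position 54 of the 86 (62.8%) had C and 15 (17.4%) had A, against 14.7% with C and 44.4% with A among all 35116 starts in the same table. A TOP start, here a C followed by at least 4 further C or T, occurred at 48 member starts (55.8%) against 4.07% of all starts. The TOP-like letters CTTTCC, searched on the gene's strand in a window from 10 bases before to 20 after the start, were present in 20 member windows (23.3%) against 1.51% of all windows of that length, and in many cases they lie inside the TOP tract. Searched on both strands in 300 bases, the same letters were in 45.3% of member windows and 26.3% of all windows. A match is a property of the letters and shows no binding.

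To set the starts beside the changes, windows are printed for 5 TOP members called higher in a comparison with RiboMinus and all 4 members called lower. The 3 members with A at their only start that were called higher in WT NAD-Capture follow, chosen for that call. Each window begins 10 bases before the annotated start, with the pyrimidine run that begins at the start in capitals.
RPL31: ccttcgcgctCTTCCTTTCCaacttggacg
RPL36A: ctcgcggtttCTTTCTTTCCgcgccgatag
RPLP1: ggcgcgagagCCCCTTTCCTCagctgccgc
RPS18: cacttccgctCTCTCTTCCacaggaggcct
RPS10: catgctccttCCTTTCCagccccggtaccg
RPL39: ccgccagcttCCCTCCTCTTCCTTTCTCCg
RPS9: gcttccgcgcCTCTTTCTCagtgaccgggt
RPS14: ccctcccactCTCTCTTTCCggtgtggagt
RPS19, start at C: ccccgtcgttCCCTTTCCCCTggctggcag
RPS19, start at A: cccgccccctagagccgcggccacgtgcga
RPL9: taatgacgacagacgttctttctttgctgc
RPL27: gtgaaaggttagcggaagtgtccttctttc
RPS4X: ctccagccccaatttctacgcgcaccggaa
RPL31, RPL36A, RPLP1, RPS18 and RPS10 were called higher after NAD-Capture of WT RNA, and RPL39, RPS9, RPS14 and RPS19 were called lower. TOP starts therefore occurred in both directions. RPL9, RPL27 and RPS4X, which lack a TOP start, were picked as called higher, although RPL27 and RPS4X had differences below 0 under quantile normalization. They are 3 of the 6 tested members with A at their only start, and the others were not called.

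In the RiboMinus libraries the members spanned from 0 to 2439 FPKM, with a median of 254 and 253. RPL38 was the highest (2439 and 2309 FPKM), ahead of RPL37A, RPL11, RPS4X, RPS6, RPL36, RPS24, RPL8, RPL27 and RPL30. RPL37A stood at 2325 and 2283 FPKM, a range that overlapped that of RPL38. RPS4X (1449 and 1399 FPKM), whose protein belongs to the 40S subunit, and RPS6 (1404 and 1322), the S6 kinase target of that subunit, overlapped in level. At the other end, RPS28 was listed at 0 in every library, and RPL21 did not exceed 0.196 FPKM. RPL36A (1.98 and 1.04), RPL7 (1.56 and 5.15), RPL9 (11.4 and 20.4) and RPS26 (14.2 and 15.8) were also far below the median. These genes encode core ribosomal proteins, and a low listed value was not read as absence of the mRNA. Why these values are low was not tested. Members have 1989 named pseudogenes in RefSeq (137 for RPL21, 95 for RPL23A, 61 for RPL7), and how reads that match several copies were assigned is not given in the sources used here. Over the 87 members the RiboMinus level and the number of pseudogenes had a Spearman's rho of -0.05, a description across genes.

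NAD-Capture libraries held a larger share of ribosomal protein mRNA. Of the FPKM summed over protein-coding (NM_) transcripts, members took 10.4% and 10.5% with RiboMinus, 21.5%, 21.2% and 18.5% after NAD-Capture of WT RNA, and 13.9%, 26.8% and 31.2% under the knockout label. The group means were 10.4% ± 0.0407 (SD, n = 2), 20.4% ± 1.63 (n = 3) and 24.0% ± 8.98 (n = 3). All 6 NAD-Capture libraries lay above both RiboMinus libraries, and the 2 NAD-Capture groups overlapped. Over all rows of the table, which include small RNAs with very high FPKM, the order was reversed: 6.60%, 6.11% and 2.70%. RPL31 was the highest member in each NAD-Capture library, and without it the shares were 10.2% and 10.3%, then 18.9%, 18.2% and 16.8%, then 13.0%, 22.3% and 23.6%.

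**Figure D1:**
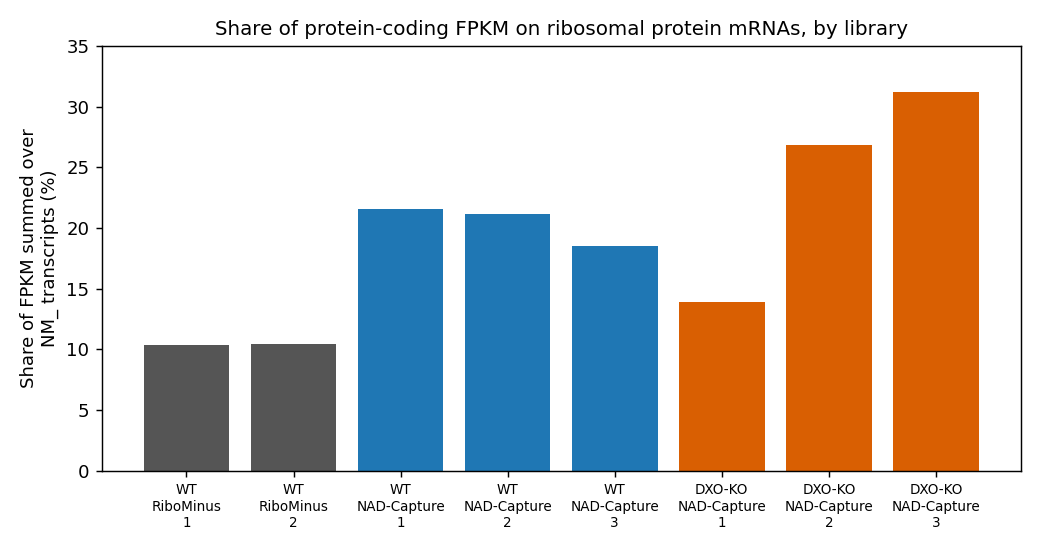
Share (%) of the FPKM summed over NM_ transcripts that lay on the 87 ribosomal protein genes, 1 bar per library. Both RiboMinus bars stand at 10.4% and 10.5%, and the 6 NAD-Capture bars run from 13.9% to 31.2%.

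The order of the members was kept closely within a capture and less so between captures. Spearman's rho over the 87 genes was 0.997 between the RiboMinus libraries, 0.985 to 0.991 among the WT NAD-Capture libraries and 0.932 to 0.971 among those labelled DXO-KO, and 0.812 to 0.830 between RiboMinus and WT NAD-Capture libraries. These are descriptions across genes, which share lengths and annotation and are not replicates. The 10 most abundant members held 41.3% and 40.4% of member FPKM with RiboMinus and 51.6%, 53.7% and 51.5% in WT NAD-Capture. Under the knockout label they held 40.3%, 53.0% and 59.2%, so replicate 1 lay at the RiboMinus level.

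In WT cells, ribosomal protein mRNAs were mostly higher in NAD-Capture than in RiboMinus libraries. Of 83 members tested, 41 (49.4%) were called higher, where 16.7% of all 16928 genes tested were called higher, and 4 (4.82%) were called lower, where 8.00% were. A call is an adjusted p below 0.05 (limma, log2(FPKM + 1), Benjamini-Hochberg over all genes tested, two-sided). The median log2 difference was 1.08 over the members and 0.21 over all genes. RPL21, RPS28, RPS4Y1 and RPS4Y2 did not pass the filter of a mean of 1 FPKM. Scaling moved these values: with each library centred on its median gene 28 members were called higher and 10 lower, scaled to the protein-coding sum 37 and 12, and after quantile normalization 31 and 26, so that 73.7%, 75.5% and 54.4% of member calls were higher instead of 91.1%. Over all genes, 42.1%, 47.0% and 60.5% of calls were higher under these scalings against 67.6% as deposited, so after quantile normalization the members' share lay below that of all genes. Of all genes, 31.2%, 31.8% and 14.3% were then called. The median gene then stood at -0.26, -0.18 and -0.20, and the members exceeded it by 0.87, 0.83 and 0.55, against 0.87 as deposited. Only 2 RiboMinus libraries carry the comparison: without replicate 1 of them no member was called, and without replicate 2 only 1, in fits where the remaining library was assumed to vary like the NAD-Capture ones. In the same fits 18 and 14 of all genes were called (0.104% and 0.0812%), so the loss was not particular to the members.

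The largest difference belonged to RPL7, a 60S protein, listed at 1.56 and 5.15 FPKM with RiboMinus and at 139, 116 and 131 in WT NAD-Capture (log2 difference 5.03, SE 0.40, adjusted p = 0.00251). RPL36A, a 60S protein near the exit site for tRNA, stood at 1.98 and 1.04 against 86.5, 58.2 and 54.2 FPKM (4.74, SE 0.32, adjusted p = 0.00221). RPL9 was at 11.4 and 20.4 against 257, 257 and 149 FPKM (3.73, SE 0.37, adjusted p = 0.00357). These 3 genes had no overlap between groups, and in all 3 the RiboMinus value was low for a member, at most 20.4 FPKM where the median member had 254 and 253. No overlap in the higher direction was found for 65.1% of tested members and 28.7% of all genes tested.

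RPL31, a 60S protein at the polypeptide exit, was abundant in both captures and still rose, from 653 and 595 FPKM to 13158, 15058 and 7197 (log2 difference 4.17, SE 0.38, adjusted p = 0.00311). RPLP1, an acidic protein of the P stalk that recruits elongation factors, went from 308 and 412 to 4400, 4516 and 3689 FPKM (3.55, SE 0.24, adjusted p = 0.00216). RPS18, a 40S head protein, went from 212 and 174 to 2505, 3077 and 1373 FPKM (3.51, SE 0.39, adjusted p = 0.00455). In each of these genes the lowest NAD-Capture library was several times the highest RiboMinus library. RPL23, known as one of the 60S proteins that bind MDM2, followed at 407 and 393 against 4279, 3876 and 3456 FPKM (3.27, adjusted p = 0.00213). RPS15A was at 293 and 253 against 2216, 2931 and 1973 FPKM (3.10, adjusted p = 0.00251), and RPS20 at 383 and 367 against 3393, 2966 and 2597 (2.98, adjusted p = 0.00226). The tenth in size, the muscle paralog RPL3L, was listed at 0 with RiboMinus and at 11.6, 4.48 and 5.95 FPKM in WT NAD-Capture, values that correspond to few fragments at this depth.

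**Figure D2:**
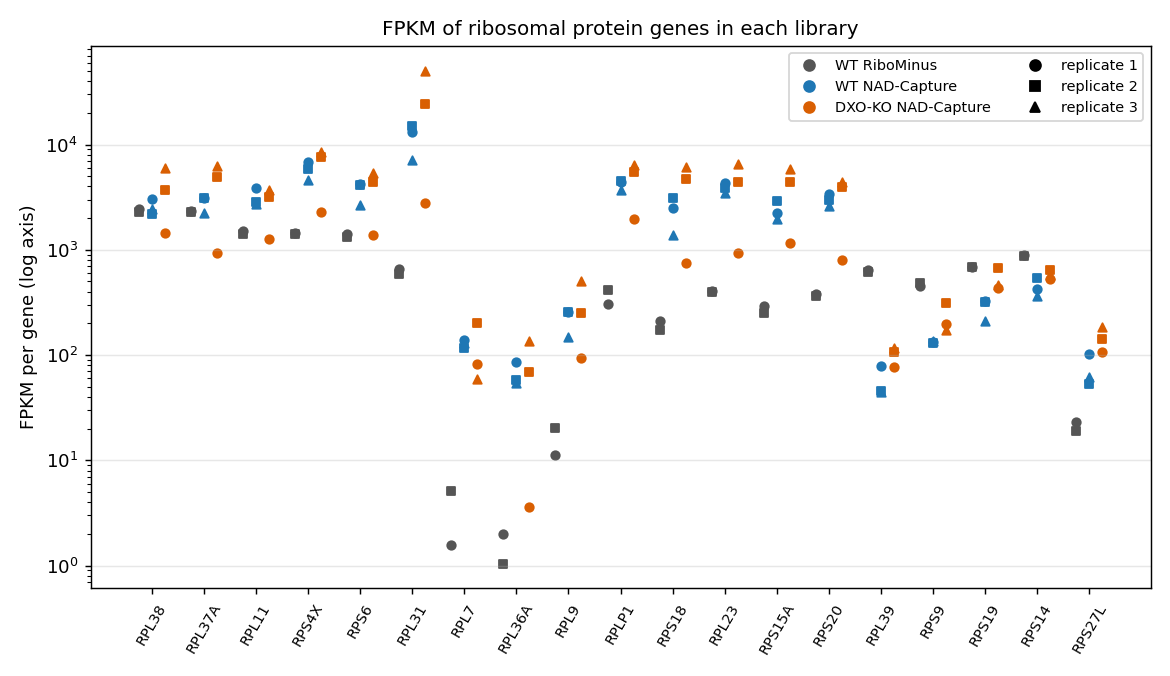
FPKM per gene on a log axis in the 8 libraries for the 5 highest RiboMinus members, the 9 largest rises among genes above 0 in all libraries, the 4 calls in the lower direction and RPS27L; colour gives the group and shape the replicate. RPL31 rises from 653 and 595 FPKM with RiboMinus to 7197 or more in WT NAD-Capture, and RPL39 falls from 640 and 620 to 78.5 or less.

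RPL39, a very short 60S protein that lines the exit tunnel, went the other way. Its mRNA stood at 640 and 620 FPKM with RiboMinus and at 78.5, 45.2 and 44.7 in WT NAD-Capture (log2 difference -3.52, SE 0.30, adjusted p = 0.00274). With a coding length of 153 nt, its NAD-Capture values may rest on few fragments, which were not counted. RPS9, a 40S body protein, fell from 451 and 479 to 132, 131 and 137 FPKM (-1.79, SE 0.16, adjusted p = 0.00284). RPS19, mutated in Diamond-Blackfan anaemia, fell from 683 and 686 to 327, 317 and 210 FPKM (-1.29, SE 0.25, adjusted p = 0.0205). RPS14, the 40S protein linked to the 5q- syndrome, fell from 895 and 876 to 428, 540 and 366 FPKM (-1.01, SE 0.23, adjusted p = 0.0295). The 4 genes had no overlap between groups. Such non-overlap in the lower direction was common, with 12 of 83 tested members and 4563 of all 16928 genes tested.

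**Figure D3:**
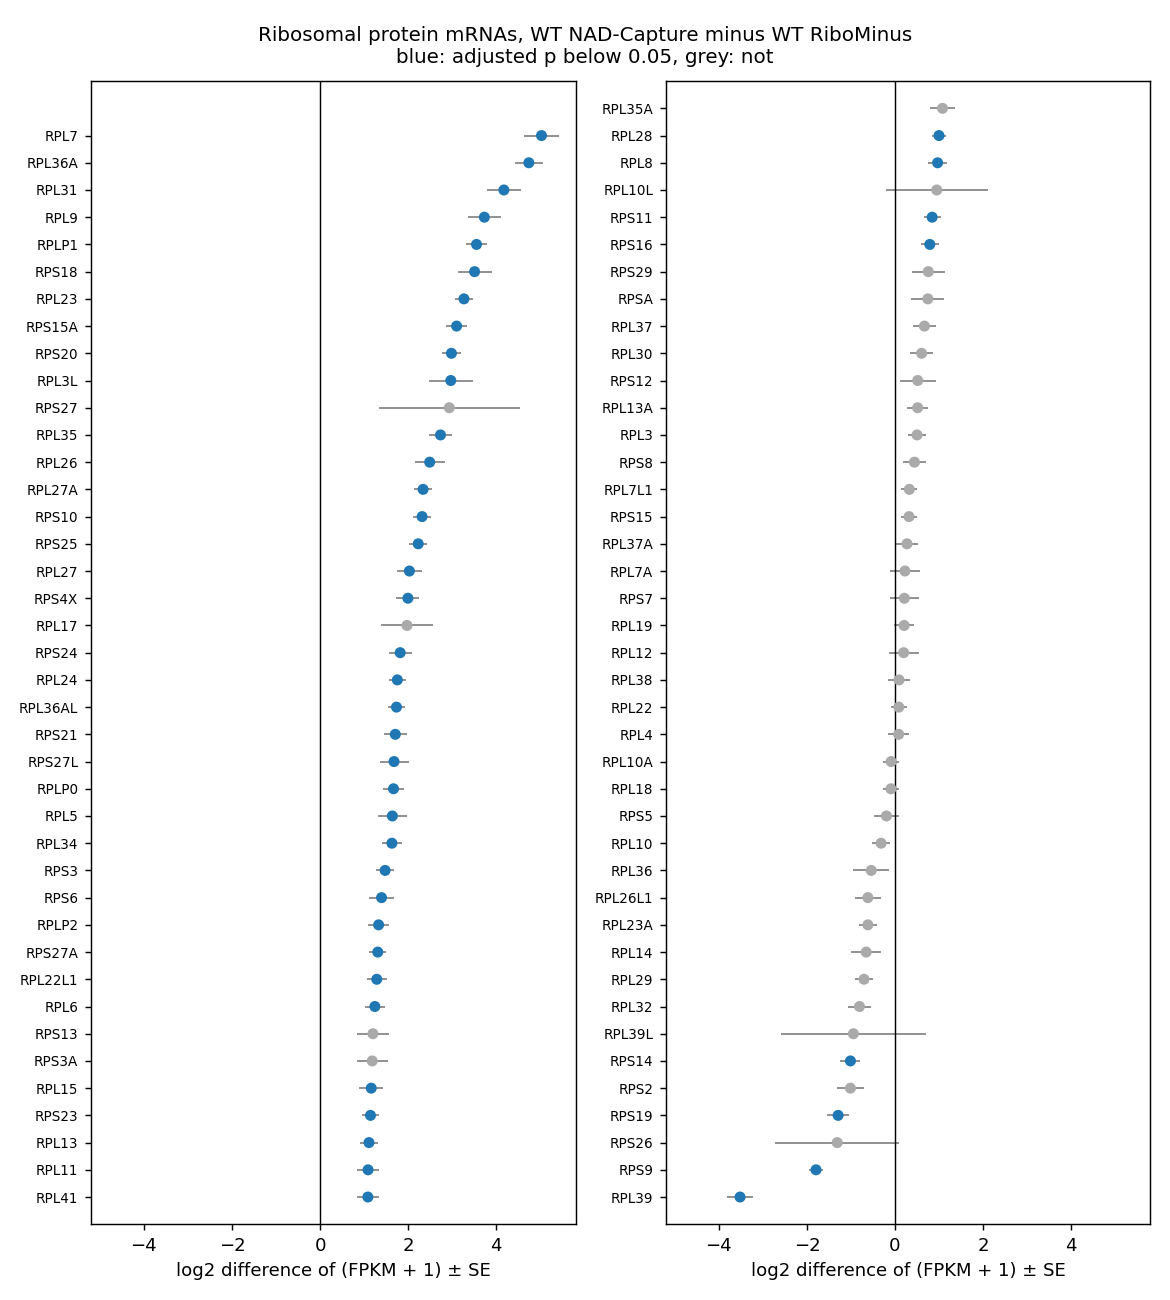
Fitted log2 difference of (FPKM + 1) between WT NAD-Capture and WT RiboMinus for 81 of the 83 tested members, sorted by size, with SE bars and calls in blue. RPL7 stands at 5.03 and RPL39 at -3.52; under quantile normalization 10 members named in the text changed sign, among them RPL11, RPL8 and RPS6.

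Both subunits took part in the values as deposited. Of 52 tested 60S members, 26 (50%) were called higher and 1 (1.92%) lower (median 1.04). Of 31 tested 40S members, 15 (48.4%) were called higher and 3 (9.68%) lower (median 1.14). Over all genes tested 16.7% were called higher and 8.00% lower. All 3 P stalk genes were called higher. RPLP0, the stalk base, was at 148 and 148 against 539, 533 and 366 FPKM (1.67, adjusted p = 0.00844), and RPLP2 at 957 and 996 against 2719, 2762 and 1965 (1.33, adjusted p = 0.0170, but -0.63 under quantile normalization). The 2 proteins that travel with 5S rRNA and bind MDM2 when ribosome assembly stalls were called higher as well: RPL5 went from 553 and 545 to 2002, 2204 and 1143 FPKM (1.64, adjusted p = 0.0228), and RPL11 from 1500 and 1423 to 3854, 2871 and 2720 (1.09, adjusted p = 0.0313, but -1.20 under quantile normalization). RPSA, the laminin receptor protein of the 40S subunit, was at 191 and 172 against 312, 459.5 and 197 FPKM and was not called (0.75, adjusted p = 0.218).

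Among the 10 members highest with RiboMinus, 6 were called higher and none lower, where 16.7% and 8.00% of all genes were. After quantile normalization, which forces the libraries to one distribution, none was called higher and 7 lower. Of all genes 14.3% were then called in either direction. RPS4X went from 1449 and 1399 to 6790, 5816 and 4627 FPKM (1.99, adjusted p = 0.00694) and RPL27 from 1145 and 1067 to 4301, 5930 and 3596 (2.03, adjusted p = 0.00850). RPS24, a Diamond-Blackfan anaemia gene, went from 1163 and 1108 to 4617, 4435 and 3146 FPKM (1.82, adjusted p = 0.00885). RPS6 (1.40, adjusted p = 0.0232), RPL8 (0.97, adjusted p = 0.0271) and RPL11 were the others. RPS4X, RPL27, RPS24, RPS6 and RPL8 had differences below 0 under quantile normalization, from -0.08 for RPL27 to -1.01 for RPL8. RPL38, the highest, stood at 2439 and 2309 against 3023, 2186 and 2444 FPKM (0.09, adjusted p = 0.795), with overlapping groups. RPL37A (0.27), RPL30 (0.60) and RPL36 (-0.54) were not called.

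The paralogs split. RPS27L, a copy of RPS27 known as a p53 target, went from 23.0 and 19.0 to 102, 52.8 and 61.4 FPKM (1.68, adjusted p = 0.0208). Its coding length is 252 nt, and its NAD-Capture values may also rest on few fragments. RPL36AL (1.73, adjusted p = 0.00409) and RPL22L1 (1.29, adjusted p = 0.0165) were called higher with RPS27L and RPL3L, 4 of 8 tested (50%, against 16.7% of all genes). RPL7L1 (0.33), RPL26L1 (-0.62), RPL39L (-0.94) and the testis paralog RPL10L (0.95, above 0 in 1 of the 5 libraries) were not called. RPL39L stood at 19.4 and 17.8 FPKM with RiboMinus against 0, 44.4 and 22.1, so its difference is below 0 through 1 library listed at 0.

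Members with a TOP start were called in both directions. Of 46 tested members with a TOP start, 25 (54.3%) were called higher and 4 (8.70%) lower (median 1.13). Of 20 with annotated starts but no TOP start, 7 (35%) were called higher and none lower (median 0.63). Over all genes tested 16.7% were called higher and 8.00% lower, so the share of TOP members called lower lay near that of all genes. The 6 tested members with A at their only start had a median of 1.98 and 3 calls in the higher direction, RPL9, RPL27 and RPS4X, and the 44 with C at their only start had a median of 1.12 and 22 such calls. Over all genes tested, a single start at A had a median of 0.27 and one at C 0.35, with 17.0% and 16.1% of them called higher. A single start at G had a median of -0.08 and one at T 1.15, with 13.7% and 17.8% called higher. Members that host snoRNAs in their introns numbered 27, with 56 snoRNAs. Of 26 tested hosts, 9 (34.6%) were called higher and 1 (3.85%) lower (median 0.71), and of 57 other members, 32 (56.1%) and 3 (5.26%) (median 1.09). The 52 hosted snoRNAs with a row in the table had a median of 0 FPKM in each group; 29 were listed at 0 in both RiboMinus libraries, 35 in all WT NAD-Capture libraries and 30 in all those labelled DXO-KO. Others were far above 0: SNORD15B, inside RPS3 and named here for its high values, stood at 209 and 302 FPKM with RiboMinus and at 24361, 21088 and 11674 in WT NAD-Capture, with no test run for it.

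Coding length did not order the differences among members (Spearman's rho -0.06 over 83 genes, a description across genes). In each class of coding length the members' median was above that of other genes: 0.76 against 0.24 up to 300 nt (11 members), 1.22 against 0.41 from 301 to 450 nt (30), 1.00 against 0.24 from 451 to 600 nt (19), 0.95 against 0.18 from 601 to 900 nt (19), and 1.08 against 0.11 from 901 to 1300 nt (4).

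Transcript assignment within a gene moved with the capture in some members. Of 32 members with more than 1 transcript and a value in all 8 libraries, 20 had the same leading transcript in every library. RPS3, a 40S protein with a role in DNA repair, had NM_001005 ahead with RiboMinus (195 and 206 FPKM, against 138 and 117 for NM_001256802), whereas NM_001256802 led in WT NAD-Capture (1013, 854 and 781, against 51.4, 33.5 and 34.4). RPLP0 and RPL9 also changed their leading transcript in every NAD-Capture library. RPL11 alternated between NM_000975 and NM_001199802 among replicates of the same group, with 88.0% or more of its FPKM on one of them each time. With only the main transcript kept, RPL11 had a difference of -2.59 (adjusted p = 0.653) where the gene sum had 1.09.

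Other parts of the same machinery were compared in the same fit. FAU, which encodes the 40S protein eS30 fused to a ubiquitin-like protein, stood at 345 and 380 against 225, 303 and 219 FPKM (-0.55, adjusted p = 0.124). RACK1, a 40S scaffold protein (-0.62), was not called either, though both were called lower after centring or protein-coding scaling. Over all genes in this fit 16.7% were called higher and 8.00% lower. Of 20 other TOP mRNAs, mostly translation factors, 6 (30%) were called higher and 4 (20%) lower. Their median was 0.33, or -0.14, -0.10 and -0.08 after centring, protein-coding scaling and quantile normalization. PABPC1, the poly(A)-binding protein (2.44), TPT1 (2.77) and EEF1D (1.56) were higher, and VIM, an intermediate filament, was lower (-1.90). Of 20 ribosome assembly factors, none was called higher and 6 (30%) were called lower (median -1.02), with RRP12 (-2.56), BYSL (-1.72), TSR1 (-1.61) and EIF6 (-1.57). After centring 11 were called lower and after protein-coding scaling 9. Over all genes 42.1% and 47.0% of calls were higher under these scalings, against 67.6% as deposited. Of 10 regulators of TOP mRNA translation, none was called higher and 3 (30%) lower: MTOR (-1.97), LARP1 (-1.79) and LARP4B (-1.39).

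Between cells labelled DXO-KO and WT cells, both after NAD-Capture, no ribosomal protein mRNA was called. Limma called 0 of 83 members and 0.0340% of 17666 genes. At an unadjusted p below 0.05, 4 members were higher (4.82%, against 7.07% of all genes) and none lower (9.63% of all genes). The groups did not overlap for 7 members in the higher direction (8.43%, against 11.8% of all genes) and for none in the lower (11.5% of all genes), so the higher share lay near that of all genes. The median was 0.30 over the members and -0.01 over all genes, with 55 of 83 above 0. It did not hold its sign: it was -0.09 without replicate 3 of the libraries labelled DXO-KO, 0.63 without replicate 1, and -0.19 after quantile normalization.

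The libraries labelled DXO-KO differed among themselves. In replicate 1, which had the greatest depth, 50 of 83 members lay below all 3 WT libraries and 8 above, with a median of -0.64 against the WT mean. In replicate 2, 64 lay above and 2 below (0.54), and in replicate 3, 69 and 4 (0.74). RPL31 showed it in full, with 2812, 24074 and 50356 FPKM under the knockout label against 13158, 15058 and 7197 in WT (log2 difference 0.42, SE 1.37, adjusted p = 0.894). RPL36A was at 3.59, 68.4 and 136 FPKM against 86.5, 58.2 and 54.2 (-0.90, adjusted p = 0.665). The order of depth among the 3 libraries was the reverse of their member shares, and its part in the result was not tested.

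**Figure D4:**
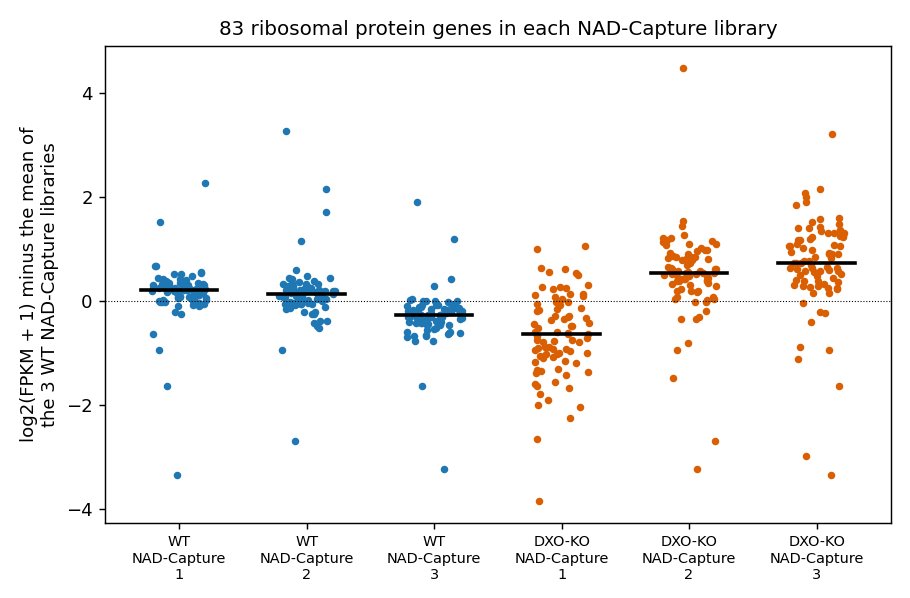
Difference of log2(FPKM + 1) from the mean of the 3 WT NAD-Capture libraries for 83 members, 1 point per gene, with the median as a bar. Replicate 1 labelled DXO-KO lies at -0.64 and replicates 2 and 3 at 0.54 and 0.74; the group's fitted median was 0.30, and -0.19 under quantile normalization.

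RPS27L had the largest difference in the higher direction, at 108, 142 and 184 FPKM under the knockout label against 102, 52.8 and 61.4 in WT (1.02, SE 0.35, adjusted p = 0.217). RPS19 was at 431, 672 and 464 against 327, 317 and 210 FPKM (0.87, adjusted p = 0.261), and RPL39 at 76.6, 107 and 118 against 78.5, 45.2 and 44.7 (0.85, adjusted p = 0.260). RPS27L and RPS19 were higher in all 3 libraries than in any WT library, and RPL39 overlapped through 1 library of each group. RPL36 and RPS12, each at 0.83, completed the 5 largest. In the other direction stood RPL3L (-1.25), RPL10L (-0.95) and RPL36A (-0.90), followed by RPL10 (-0.63), at 30.4, 59.1 and 32.0 against 63.9, 68.1 and 50.1 FPKM, and RPL23A (-0.53). FAU (0.09) and RACK1 (0.41) were not called. None of the 20 other TOP mRNAs, 20 assembly factors and 10 regulators was called.

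Set against RiboMinus, the libraries labelled DXO-KO gave fewer calls than the WT libraries did, and the comparison shares its RiboMinus libraries with the one above. Of 82 members tested, 5 (6.10%) were called higher, where 2.49% of 15004 genes were, and 1 (1.22%) was called lower, where 0.860% of genes were. The median was 1.30 over the members and 0.20 over all genes. RPL7 stood at 82.1, 203 and 59.1 FPKM (4.66, SE 0.64, adjusted p = 0.0302), and RPS27L at 108, 142 and 184 against 23.0 and 19.0 (2.70, SE 0.30, adjusted p = 0.0208). RPS10, another Diamond-Blackfan anaemia gene, was at 577, 1056 and 1301 against 133 and 162 FPKM (2.65, adjusted p = 0.0435), and RPL13 at 154, 229 and 202 against 57.0 and 60.4 (1.70, adjusted p = 0.0381). RPL39 was again lower, at 76.6, 107 and 118 against 640 and 620 FPKM (-2.66, SE 0.29, adjusted p = 0.0205). RPL31, with a difference of 4.59, was not called (adjusted p = 0.144), its 3 libraries spanning 2812 to 50356 FPKM.

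The number of calls in that comparison, over members and over all genes, changed with single libraries. Without replicate 1 labelled DXO-KO 39 members were called, where 8.49% of all genes were. Without replicate 2 no member and 1 gene in all were called, and without replicate 3 there were 7 members, where 10.4% of all genes were called. Without RiboMinus replicate 1 or 2 no member was called, and 0 and 2 genes in all. After quantile normalization 13 were called higher and 19 lower, so that 40.6% of member calls were higher instead of 83.3%; of all genes 5.47% were called, 57.1% of them higher, against 74.3% as deposited. RPS26 (-1.58), RPL39L (-1.23) and RPL23A (-1.14) had differences in the lower direction and were not called. RPS26 stood at 4.68, 0 and 26.2 FPKM under the knockout label against 14.2 and 15.8 with RiboMinus. RPL39L stood at 20.3, 26.5 and 0 against 19.4 and 17.8, so its difference is below 0 through 1 library listed at 0. RPL23A stood at 30.7, 17.9 and 81.3 against 75.9 and 84.5.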

How the data were processed

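RNA from HEK293T cells was measured in 8 libraries. The authors deposited FPKM per RefSeq transcript and library, per the file name; the submitters' processing notes name TopHat2 2.1.1, Bowtie2 2.2.8.0, Cuffdiff and hg19, without saying which step used which. A RefSeq gene table (GRCh38.p14) and a GENCODE pairing matched 49472 of 53216 transcripts (93.0%) to symbols, and FPKM were summed per symbol. No coordinates are given, since the builds differ. Coding lengths came from GENCODE and covered all 87 members. Depth was read from low values of transcripts of 1500 to 6000 nt: 70.5% to 73.0% lay within 4% of a whole multiple of the value of 1 fragment. Because values of genes with several transcripts are not whole, no count model was fitted.

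The test was limma 3.58.1 (R 4.3.3), with the trend option and without the robust option, fitted to log2(FPKM + 1), a scale which understates changes of low genes, over genes with a mean of at least 1 FPKM in the libraries compared, with only those libraries in the fit. The script was tested on simulated data. Tables were made with Python 3.11.15 and pandas 2.3.3. Alternatives were a pseudocount of 0.1, other filters, 3 scalings, the main transcript only, a common fit, a replicate block and leaving out each library.

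The members and gene lists were chosen with earlier results of these data known. Named members are, per comparison and direction, up to 10 calls by size, or the largest differences up to 5 where fewer than 5 passed; the 10 highest with RiboMinus; RPSA; and the P stalk, 5S and paralog lists. RPL21, the members with several transcripts described for their leading one, SNORD15B and the length classes were chosen after values were seen. Other lists were limited to the 4 genes with the largest absolute t. A few genes that these rules would name are not reported here by name; they remain in the counts.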

Additional observations from a re-analysis of the deposited data

How the results depend on the processing

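No member was called between the NAD-Capture groups under any alternative run. Of all 17666 genes 0.0340% were called in the main fit and 2.41% in the common fit. For WT NAD-Capture against RiboMinus, 45 members and 24.7% of all genes were called. The count of members was 24 with all 8 libraries in a common fit, where 15.5% of all genes were called. With 1 WT NAD-Capture library left out it ranged from 42 to 59, the highest without replicate 3, where 31.4% of all genes were called. Without RiboMinus replicate 1 or 2, which leaves 1 library in that group, the members' median log2 difference was 1.07 and 1.01. For the libraries labelled DXO-KO against RiboMinus, 6 members and 3.35% of all genes were called. The count of members was 2 with no filter (0.410% of all genes) and 32 after quantile normalization (5.47%). It was 17 in the common fit (5.85%) and 0 to 39 with 1 library labelled DXO-KO left out. Without RiboMinus replicate 1 or 2 the members' median log2 difference was 1.33 and 1.24. The first comparison's median of 1.08 became 0.61 after centring, 0.34 after quantile normalization and 0.65 after protein-coding scaling, and the third's became 0.035 after quantile normalization. The share of members was 9.85% with RiboMinus from main transcripts only, and 6.60%, 6.11% and 2.70% in the 3 groups over all rows. Quantile normalization took the members above 0 from 65 to 45 of 83 tested in the first comparison and from 68 to 43 of 82 in the third. Among the named members only, these changed sign in the first comparison: RPL11 -1.20, RPL27 -0.079, RPL30 -1.22, RPL37A -2.33, RPL38 -2.59, RPL8 -1.01, RPLP2 -0.63, RPS24 -0.27, RPS4X -0.34 and RPS6 -0.75. In the third, these named members changed sign with a call in the main or the quantile fit: RPL11 -2.38, RPL30 -1.87, RPL36 -2.49, RPL37A -3.16, RPL38 -3.25, RPL8 -1.73 and RPS6 -1.81. A further 5 named members changed sign there with no call in either fit. RPL11 was -2.59 with its main transcript only. Apart from the fewer libraries of a fit with 1 left out, the causes were not tested. A replicate block left 0 members called in both comparisons with RiboMinus, and also 0 of all 16928 and 0 of all 15004 genes tested. The loss was therefore not particular to the members. Same-numbered libraries deviated from their group means with correlations of -0.044 to 0.022. Deviations of 2 RiboMinus libraries mirror each other, so correlations with them cannot show whether same-numbered libraries shared a culture or batch. Between the 2 NAD-Capture groups the same-numbered correlations were -0.0146, -0.0018 and -0.033, and the others ran from -0.032 to 0.047. Those values do not tell which libraries shared a culture or batch either. Low depth of the NAD-Capture libraries limits genes of a few FPKM, such as RPL3L and RPL10L. The limit reaches higher FPKM on short transcripts, where 1 fragment is worth more than on 1 kb. It may therefore also touch members such as RPL39 and RPS27L, for which fragments were not counted.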
